A study of Homo sapiens with 8 samples.

Results

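The loss of mir-200c in cells that already lacked mir-141 was measured as the difference between 2 log2 ratios for every gene, that of a double knockout clone to wild type minus that of a mir-141 knockout clone to the same wild type. The wild type cancels in this difference, so a positive value means more mRNA in the double knockout than in the mir-141 knockout. The comparison used 4 of the 8 libraries of the series. All came from SK-BR-3, an established human breast cancer cell line with amplified ERBB2, in which mir-141, mir-200c or the pair of them had been removed with TALENs, engineered enzymes that cut DNA at a site of choice. In set 1, double knockout clone 55 was set against mir-141 knockout clone 23, and these values are the main ones here. In set 2, double knockout clone 61 stood against mir-141 knockout clone 10, but the rows of set 2 may stand beside wrong gene names, and they are given only as listed. The other libraries were 2 of wild-type cells and 2 of mir-200c knockout clones, number 11 in set 1 and number 29 in set 2. Every knockout library is 1 clone, so the effect of a genotype and that of its clone cannot be told apart.

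MicroRNAs pair with sites in the 3′ UTR of mRNAs through their seed, the bases just after the 5′ end, and lower the stability and translation of those mRNAs. The family of mir-200c and mir-141 is known for holding epithelial cells in their state by repressing ZEB1, ZEB2 and a range of cytoskeletal and matrix genes. ZEB1, ZEB2, CDH1, VIM and MSN, the best known genes of this axis, were not analysed here. Both microRNAs are made from one stretch of chromosome 12 (GRCh38.p14, plus strand), with the mir-200c hairpin at chr12:6963699-6963766 and the mir-141 hairpin at chr12:6964097-6964191. Their mature sequences and those of the rest of the family, on chromosome 1, are shown because the seed decides which sites were counted below. The sequences are those of RefSeq, with seed bases 2 to 8 in capitals.
miR-200c-3p: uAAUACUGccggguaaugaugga
miR-200b-3p: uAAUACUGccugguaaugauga
miR-429: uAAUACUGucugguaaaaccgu
miR-141-3p: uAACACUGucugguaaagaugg
miR-200a-3p: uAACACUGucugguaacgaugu
The first 3 share 1 seed and the last 2 share the other. Counted from the 5′ end, with the base of miR-200c-3p first, the only seed difference between miR-200c-3p and miR-141-3p is U4C, and C9U, G11U and U17A lie outside the seed. Because miR-200b-3p and miR-429 carry the seed of miR-200c-3p, cells without mir-200c can still hold that seed. No value for a microRNA was analysed here, so the knockouts themselves were not checked.

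The values were log2 ratios for 9245 RefSeq mRNA entries with 9241 distinct symbols. Levels and counts cannot be read from ratios. Depth is therefore unknown, no filter on level was possible, and a gene with few reads carries the same weight as one with many. For the same reason, the epithelial identity of the cells could not be checked from levels. Among other cell types, 4 of 17 blood markers had a row, with differences of 0.97 for CSF1R, -0.13 for CD68, -0.31 for LCP1 and -0.46 for CORO1A. Of 16 fibroblast and endothelial markers, 4 had a row, with differences of 1.24 for CDH5, 0.17 for ENG, -0.05 for COL1A1 and -0.11 for ESAM. Their part in the results was not tested. With 1 library per group in set 1, differences within that set have no replicate check and no p-value.

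Adding the loss of mir-200c left most genes close to their value in the mir-141 knockout. In set 1 the difference had a median of -0.0177 and an SD across genes of 0.281, with 93.6% of genes within 0.5 of 0. A log2 difference of at least 1, which is a fold of 2, was reached by 47 genes upward (0.508% of 9245) and by 19 downward (0.206%). At 0.5, the counts were 388 upward (4.2%) and 206 downward (2.23%). Of all genes, 46.7% lay above 0 and 53.2% below it, a balance that depends on how the columns were centred, since every deposited column had a mean close to 0. The genes just inside the threshold of 1 were ORM2 at 1.02, OSTM1 at 1.03, S100A1 at -1.001 and TSPAN1 at -1.001. Just outside it were HIST1H4H at 0.997, MYADM at 0.99, SLC7A8 at -0.98 and HIST1H2BH at -0.98.

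The highest difference was that of MYL9, the regulatory light chain of myosin II (chr20:36541484-36551447). Its log2 ratio to wild type was 0.79 in the mir-141 knockout and 3.01 in the double knockout, a difference of 2.23 or 4.68-fold. In bulk libraries such as these, fewer cells of a kind and less RNA per cell cannot be told apart. CYP4B1, a cytochrome P450 that oxidises fatty acids and foreign compounds, had ratios of 0.84 and 3.04. CLDN1, a claudin of tight junctions that is also a marker of basal-like breast tumours, stood at -0.0081 in the mir-141 knockout and at 2.04 in the double knockout. In all 3, most or all of the distance of the double knockout from wild type was absent in the mir-141 knockout. The mir-200c knockout, which kept mir-141, was also above wild type for MYL9 (3.20), CYP4B1 (1.29) and CLDN1 (1.53).

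Further high genes began with LCN2 and GBP1. LCN2, a secreted protein that binds bacterial iron carriers, had ratios of 0.64 and 2.48. GBP1, a GTPase induced by interferon, had -0.01 and 1.68, and OLFM4, a secreted glycoprotein of mucosal epithelia, had 2.76 and 4.43. INSL4, an insulin-like peptide best known from placenta, had 0.07 and 1.59. LCN2 and OLFM4 were already above wild type in the mir-141 knockout, whereas GBP1 and INSL4 were not.

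Another 4 of the 12 highest genes were far below wild type in the mir-141 knockout and less so in the double knockout. PPARG, the nuclear receptor of fat cell differentiation, had ratios of -1.39 and 0.28, and BIN1, a protein that bends membranes, had -1.10 and 0.56. PARVB, a focal adhesion protein that links integrins to actin, had -3.82 and -2.24, and KHNYN, a partner of an antiviral RNA-binding protein, had -4.68 and -3.12. PPARG and BIN1 thus ended near or above wild type, while PARVB and KHNYN remained more than 4-fold below it. For PARVB and KHNYN the differences may rest on few reads, which ratios alone cannot show. Exons of KHNYN overlap those of SDR39U1 over 15.9% of their length on the opposite strand, and the labels do not state whether the counting used strand. The remaining gene of the 12 was the histone gene HIST2H3D, at -0.64 and 0.90, whose reads could belong to near-identical histone copies.

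The lowest difference was that of SNRPN, an imprinted gene for a small ribonucleoprotein particle protein (chr15:24823637-24978723). Its ratio was 0.03 in the mir-141 knockout and -3.20 in the double knockout, 9.41-fold lower. Part of its exons is shared with SNURF on the same strand, so the reads of both cannot be told apart. IGFBP2, a secreted binder of insulin-like growth factors, had ratios of -0.62 and -3.27. FBP1, the fructose bisphosphatase of gluconeogenesis, had -6.08 and -8.51, so its loss was already deep without the further loss of mir-200c. A difference between ratios this low may rest on few reads, which ratios alone cannot show.

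The other low genes differed in kind. MUC5B, a gel-forming mucin, had ratios of -2.19 and -3.72, and SCGB2A2, the breast secretory protein mammaglobin, had -0.10 and -1.62. WLS, the carrier that brings Wnt proteins to the cell surface, had -0.14 and -1.73, and MGP, an inhibitor of calcification in matrix, had -0.0049 and -1.23. PCP4, a small binder of calmodulin, stood at 0.48 and -1.13 and CABYR, a calcium-binding protein best known from sperm, at 0.28 and -0.95. The remaining 3 were ATP11A, a lipid flippase, at -0.61 and -1.91, the histone gene HIST1H2AG at 0.08 and -1.14, and MND1, a meiotic recombination factor, at 1.06 and -0.11. MND1 was the only one of the 12 lowest genes that was high in the mir-141 knockout and near wild type in the double knockout.

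**Figure D1:**
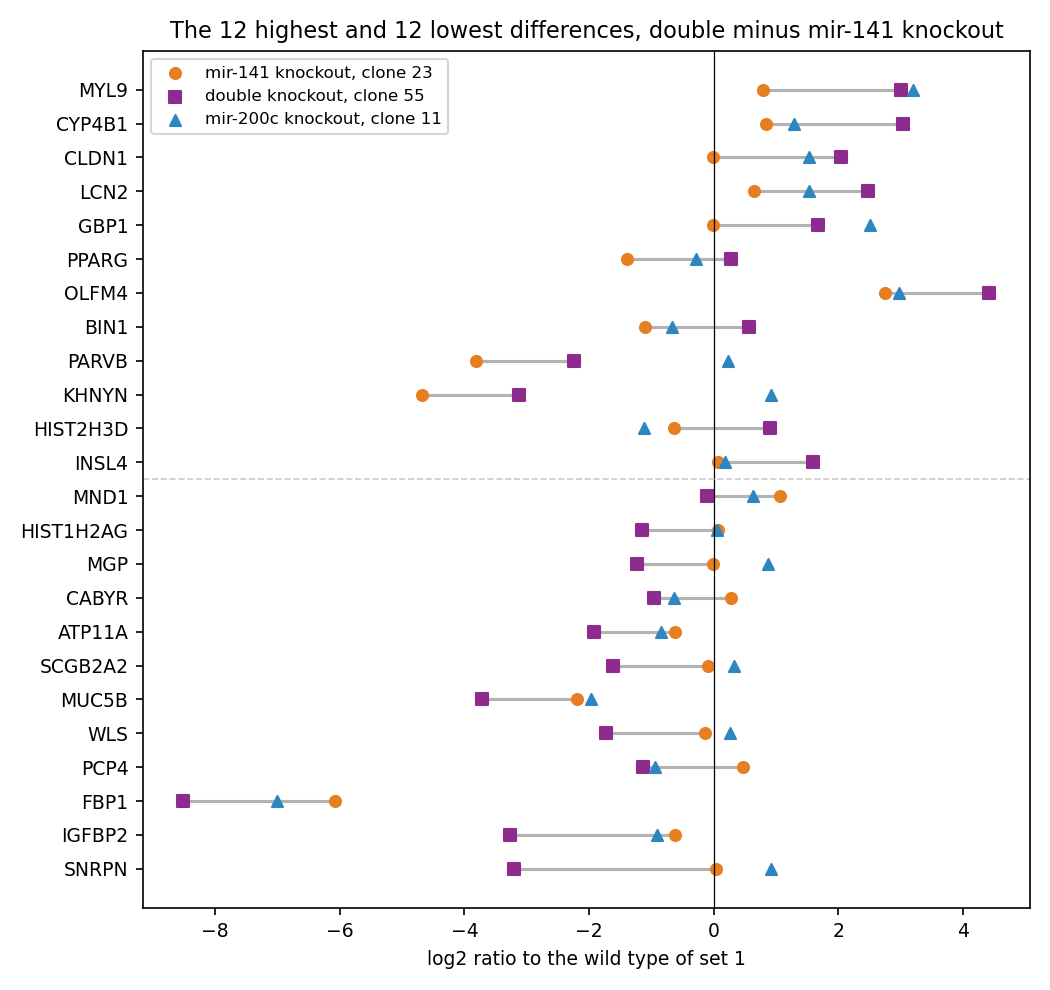
Log2 ratio to the wild type of set 1 for the 12 genes with the highest and the 12 with the lowest difference between double and mir-141 knockout. Circles are the mir-141 knockout, squares the double knockout and triangles the mir-200c knockout, 1 library each, and grey lines join the compared pair. For MYL9 the square (3.01) lies close to the triangle (3.20) and far from the circle (0.79), while for SNRPN the square (-3.20) stands apart from both.

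How far these genes stood from wild type before mir-200c was removed varied. Among the 47 genes with a difference of at least 1, the ratio in the mir-141 knockout was within 0.5 of wild type for 25, at or above 0.5 for 6 and at or below -0.5 for 16. Of those 16, 6 were within 0.5 of wild type in the double knockout, and 24 of the 47 stood at least 1 above wild type there. Among the 19 genes at or below -1, the mir-141 knockout was within 0.5 of wild type for 7, lower for 7 and higher for 5. The double knockout stood at least 1 below wild type for 13 of the 19. Of all 9245 genes, 93.8% were within 0.5 of wild type in the mir-141 knockout, 328 at or above 0.5 and 243 at or below -0.5. In the double knockout, 141 of all genes stood at least 1 above wild type and 69 at least 1 below. The mir-141 library enters both the starting point and the difference, so these counts describe where genes lay and are not separate measurements.

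The same loss could be read in cells that kept mir-141, as the ratio of the mir-200c knockout to wild type. In set 1 this ratio uses clone 11 and the wild type, and the difference described above uses clones 55 and 23, so the 2 measurements share no library. Across the 9245 genes they had a Pearson correlation of 0.340 and a Spearman correlation of 0.348, and 63.0% of genes had the same sign. Genes are not independent replicates, and the depth of the libraries behind both values is unknown. The SD across genes was 0.281 for the loss without mir-141 and 0.431 for the loss with it, and the slope of the first on the second was 0.221. For comparison, the loss of mir-141 read in the same way, with and without mir-200c and again with no library shared, had a Pearson correlation of 0.181 and a Spearman correlation of 0.0836. In set 2 as listed, the Pearson correlations lay closer together, at 0.293 for the loss of mir-200c and 0.235 for that of mir-141. Whether these correlations differ was not tested.

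Of the 47 genes that were higher by at least 1 without mir-141, 38 (80.9%) lay above 0 with mir-141, against 48.0% of all genes. There, 28 of the 47 reached 0.5 and 15 reached 1, with a median of 0.68. Of all 9245 genes, 837 reached 0.5 and 157 reached 1 with mir-141. Of the 19 lower genes, 13 (68.4%) lay below 0 with mir-141, against 52.0% of all genes, with a median of -0.41. At the threshold of 0.5, 302 of 388 higher genes (77.8%) and 139 of 206 lower genes (67.5%) kept the sign. In the reverse view, 645 of the 837 genes that reached 0.5 with mir-141 stayed within 0.5 of 0 without it. The same held for 646 of the 732 genes that reached -0.5. Of all genes, 93.6% stayed within 0.5 of 0 without mir-141.

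The genes furthest from 0 on both axes with the same sign included 10 of the 24 highest and lowest ones. Both choices use the same difference, so this overlap is in part built in. In the mir-200c knockout, MYL9 stood at 3.20, OLFM4 at 2.98, GBP1 at 2.50, CLDN1 at 1.53, LCN2 at 1.53 and CYP4B1 at 1.29. ZSWIM4, a little-studied zinc finger gene, had 1.86 there and a difference of 1.29 without mir-141. HIST1H2AD, with 2.70 and 1.27, shares 98.0% of its exonic bases with another annotated gene, so its reads cannot be assigned. On the low side, FBP1 stood at -7.01, MUC5B at -1.98, PCP4 at -0.95 and IGFBP2 at -0.90 in the mir-200c knockout. FGFR3, a fibroblast growth factor receptor, had -1.20 there and a difference of -1.03, and S100A1, a calcium-binding protein of the S100 group, had -1.18 and -1.001. C2orf76 had -0.93 and -0.92, and the histone gene HIST1H2BH had -4.60 and -0.98.

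**Figure D2:**
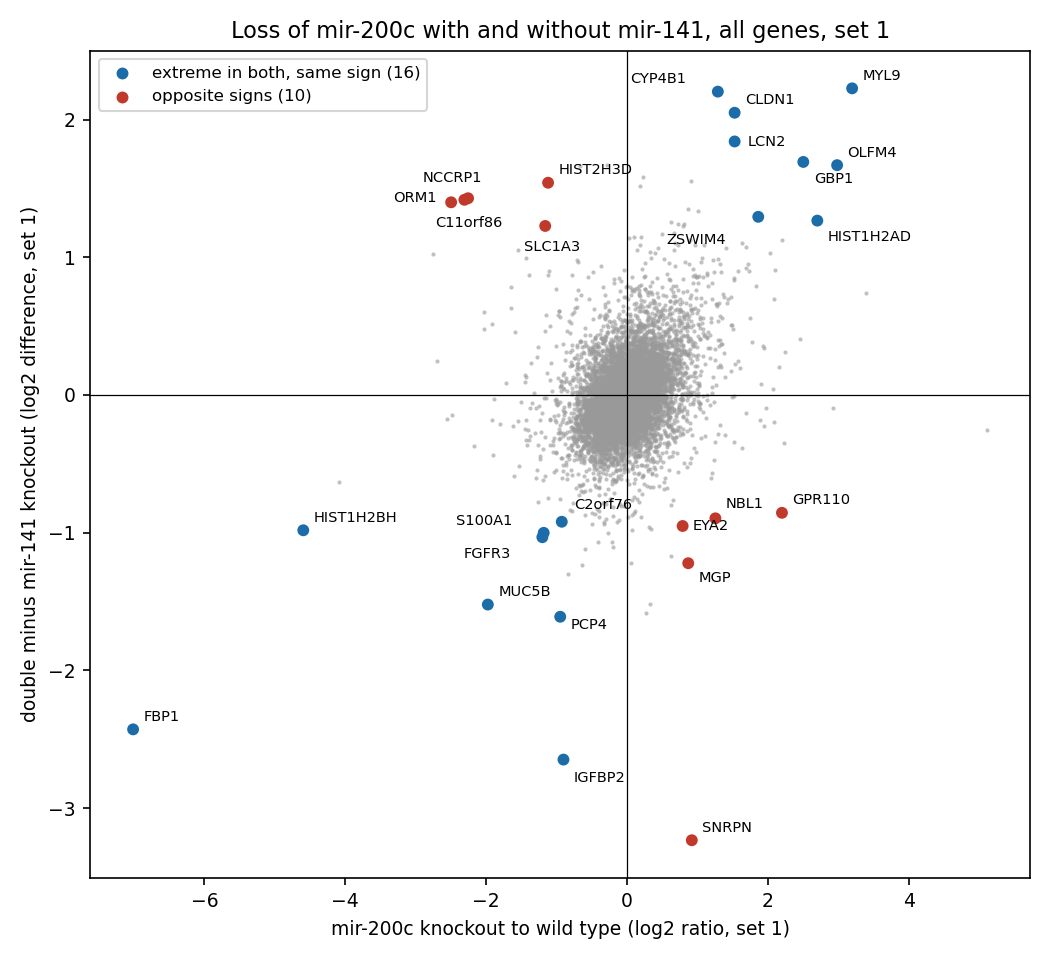
Each point is 1 of 9245 genes in set 1, with the log2 ratio of the mir-200c knockout to wild type on the x axis and the log2 difference of double minus mir-141 knockout on the y axis. Blue marks the 16 genes most extreme with the same sign on both axes, from MYL9 at the upper right to FBP1 at the lower left, and red marks 10 genes with opposite signs.

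Some genes lay on opposite sides of 0 in the 2 settings. NCCRP1, ORM1, SLC1A3 and C11orf86 were below wild type in the mir-200c knockout, at -2.26, -2.50, -1.16 and -2.31, and higher in the double than in the mir-141 knockout, by 1.43, 1.40, 1.23 and 1.42. SLC1A3 encodes a glutamate transporter and ORM1 an acute-phase plasma protein, whose reads may in part belong to its near-identical neighbour ORM2. For NCCRP1, ORM1 and SLC1A3 the mir-141 knockout itself was low, at -2.61, -2.06 and -1.38, and the double knockout was closest to wild type of the 3 clones, at -1.19, -0.66 and -0.15. On the other side, GPR110, an adhesion-type receptor, was high in all 3 clones, at 2.07 in the mir-141, 2.20 in the mir-200c and 1.22 in the double knockout. NBL1, a secreted antagonist of bone morphogenetic proteins, was high in all 3 too, at 3.20 in the mir-141, 1.25 in the mir-200c and 2.30 in the double knockout, though it shares 11.5% of its exonic bases with a read-through gene. EYA2, a transcriptional coactivator, was above wild type in the mir-200c knockout, at 0.79, with -0.25 in the mir-141 and -1.20 in the double knockout. Within set 1 the difference between the 2 settings could not be tested for these genes. A limma fit over both sets as listed, described below, called none of them for this difference (limma adjusted p = 0.9999 for each).

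Genes with sites for mir-200c-3p in their 3′ UTR stood slightly higher when mir-200c was removed from cells without mir-141. For 9207 genes, the longest 3′ UTR in the annotation was read on the transcript strand. A site for mir-200c-3p was CAGTATT, which pairs with seed bases 2 to 8, or AGTATTA, which pairs with bases 2 to 7 and ends in A, or the 8-base CAGTATTA that joins both. For mir-141-3p the same forms were CAGTGTT, then AGTGTTA with the final A, and the 8-base CAGTGTTA. Genes with sites for mir-200c-3p only (1181) had a mean difference of 0.0362, those with sites for mir-141-3p only (1348) 0.00987, those with both (1042) 0.0548 and those with neither (5636) -0.0207. Site genes have longer 3′ UTRs, with a median of 2165 bases for mir-200c-3p only against 777.5 for neither. Within 20 bins of 3′ UTR length, the distance from genes with neither site was 0.0320 for mir-200c-3p only, 0.00412 for mir-141-3p only and 0.0348 for both. Without bins, the distances were 0.0569, 0.0305 and 0.0755, so all 3 shrank with length taken into account.

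Longer pairing went with higher values in set 1. Genes whose best mir-200c-3p site was the 8-base one (442, 4.80% of all) had a mean of 0.108, those with 7 bases reaching position 8 (1230) 0.0348, those with 7 bases and the final A (551) 0.0169, those with 6 bases (1373) 0.00697 and those with none (5611) -0.0201. Within length bins, the 8-base genes lay 0.0922 above genes without a site. Of the 442, 273 (61.8%) lay above 0, against 46.7% of all genes. Among them, 35 (7.92%) reached 0.5 and 4 reached -0.5, against 4.2% and 2.23% of all genes. Genes with 1, 2 and 3 or more sites of 7 or 8 bases averaged 0.0382, 0.0482 and 0.0853. For mir-141-3p, whose loss both clones of the comparison share, the 500 genes with an 8-base site had a mean of 0.0443, and 0.0109 within length bins.

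In the cells that kept mir-141, the 442 genes with an 8-base mir-200c-3p site had a mean ratio of 0.111 to wild type, and lay 0.0927 above genes without a site within length bins. Within the same bins, the 7-base site reaching position 8 gave -0.0032 there and 0.0213 without mir-141, and the 7-base site with the final A gave -0.0070 and 0.0065. The sizes for the 8-base site were nearly equal in the 2 settings, in libraries that are not shared. Every one of these averages is small beside the SD of 0.281 across genes.

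**Figure D3:**
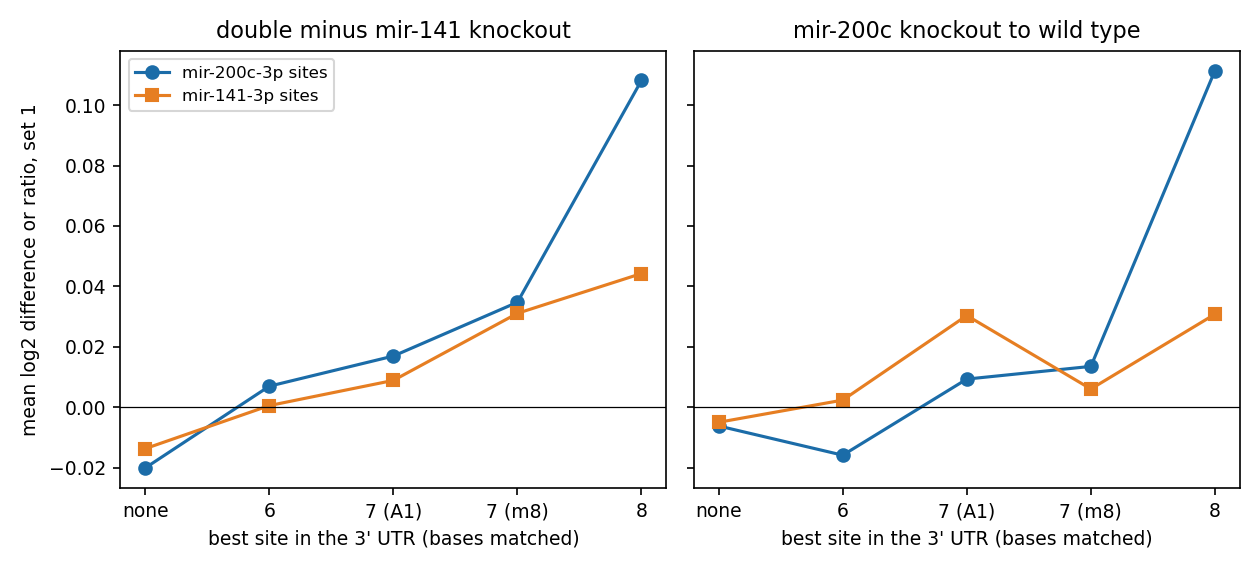
Mean log2 difference of double minus mir-141 knockout (left) and mean log2 ratio of the mir-200c knockout to wild type (right) in set 1, by the best seed site in the 3′ UTR, from none to 8 bases. Circles are mir-200c-3p sites and squares mir-141-3p sites. The circle for 8 bases stands at 0.108 on the left and 0.111 on the right, above every other point.

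The 8-base sites of genes with high differences are shown here with the bases around them, since they carry the sequence that the counts rest on. Each is read from a GENCODE 29 transcript, 5′ to 3′ on the transcript strand, with the site in capitals and the position of the site on GRCh38.
ZSWIM4, chr19:13831136-13831143, plus strand: cccacgtggcatttCAGTATTAttaagt
KCNMB1, chr5:170378235-170378242, minus strand: ctagaacacatttaCAGTATTActattt
DOCK4, chr7:111727389-111727396, minus strand: ggaatcaatacagaCAGTATTAaattaa
OSTM1, chr6:108044334-108044341, minus strand: attaccccccattgCAGTATTAttgtta
LHFP, chr13:39343318-39343325, minus strand: atacatttaaaataCAGTATTAtcactt
CNEP1R1, chr16:50035661-50035668, plus strand: gattacctgtgtttCAGTATTAgtgtca
QKI, chr6:163573234-163573241, plus strand: aatgccttggttctCAGTATTAtcattc
RND3, chr2:150468396-150468403, minus strand: cattatgctttgggCAGTATTAcaaaat
TIMP2, chr17:78852987-78852994, minus strand: ccgtggacaataaaCAGTATTAtcaaag
SEC23A, chr14:39032285-39032292, minus strand: ggttcttattgaaaCAGTATTAtataat
CFL2, chr14:34712476-34712483, minus strand: tggtcaacttttttCAGTATTAtttata
OSTM1, QKI and CFL2 each hold a second 8-base site further along the same 3′ UTR. These matches describe the sequence and do not show that a site is used.

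The 8 genes with the highest differences among those with such a site were led by ZSWIM4, whose ratios to wild type were 0.42 in the mir-141 and 1.71 in the double knockout. KCNMB1, a subunit of calcium-activated potassium channels, had -0.32 and 0.92, a difference of 1.24. DOCK4, an activator of small GTPases, had 0.12 and 1.16, and OSTM1, a partner of a lysosomal chloride transporter, had 0.29 and 1.32. LHFP had 0.88 and 1.78, CNEP1R1, a subunit of a nuclear envelope phosphatase, -0.27 and 0.61, and QKI, an RNA-binding regulator of splicing, -0.19 and 0.67. GOLGA8B, at -0.17 and 0.95, has near-identical copies on chromosome 15, so its value is uncertain. In the mir-200c knockout all 8 were above wild type, from 0.40 for DOCK4 to 2.03 for OSTM1.

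A mir-200c-3p site of 7 or 8 bases was present in 24.1% of all genes with a 3′ UTR, in 114 of 383 genes at or above 0.5 (29.8%) and in 41 of 203 at or below -0.5 (20.2%). The 8-base site was present in 35 of the 383 (9.14%) and in 4 of the 203 (1.97%). Among genes at or above 0.5 both with and without mir-141, 56 of 173 (32.4%) had a site and 21 (12.1%) had an 8-base one. Among the 45 genes at or above 1 with a 3′ UTR, 10 (22.2%) had a site, close to the share in all genes, and 5 (11.1%) had an 8-base one, above the 4.80% of all genes. Of the 12 highest genes, from MYL9 to INSL4, only PARVB had a mir-200c-3p site, of 7 bases reaching position 8. HIST2H3D had no annotated 3′ UTR.

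In set 1, seeds of microRNAs outside the family gave no such distance. Within length bins, genes with any 7- or 8-base site lay 0.0339 above genes without one for mir-200c-3p and 0.00982 above for mir-141-3p. The same measure was -0.00241 for let-7a-5p, -0.0112 for miR-122-5p, -0.0102 for miR-1-3p, -0.000724 for miR-133a-3p and -0.0113 for the other arm of the mir-200c hairpin, miR-200c-5p. Among 16139 heptamers found in at least 50 genes, CAGTATT ranked 236 by its shift of 0.0430 within length bins, over 1672 genes. Heptamers in few genes spread more widely, and when the shift was weighted by the square root of the number of genes, a measure chosen after seeing the data, CAGTATT ranked 1 and AGTATTA ranked 3. By the same weighted measure CAGTGTT, of mir-141-3p, ranked 179. CAGTATT ranked 142 for the ratio of the mir-200c knockout to wild type and 12457 for that of the mir-141 knockout.

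Published targets of the mir-200 family lay higher than most genes. Of 37 measured targets, 27 lay above 0, 7 reached 0.5 and none reached -0.5, with a median of 0.152 against -0.0177 for all genes. Of all genes, 46.7% lay above 0, 4.2% reached 0.5 and 2.23% reached -0.5. The 27 with a mir-200c-3p site had a median of 0.193, and the 10 without one had 0.0175. QKI was the highest, followed by RND3, a small GTPase that dissolves stress fibres, with ratios of 0.02 in the mir-141 and 0.88 in the double knockout. TIMP2, an inhibitor of matrix proteases, had -0.18 and 0.58, and SEC23A, a coat protein of vesicles leaving the endoplasmic reticulum, had -0.28 and 0.44. CFL2, which severs actin filaments, had 0.10 and 0.75. All 5 were also above wild type in the mir-200c knockout, at 0.93 for QKI, 1.08 for RND3, 0.98 for TIMP2, 0.18 for SEC23A and 0.90 for CFL2. Over the whole list in the mir-200c knockout, 21 of 37 targets lay above wild type and 16 below, with a median of 0.0999. Of all genes, 48.0% lay above wild type there. The lowest target was TRPS1, a zinc finger repressor, at -0.29.

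In the lists that follow, counts can be read against all genes, of which 46.7% lay above 0, 4.2% reached 0.5 and 2.23% reached -0.5, and no list was tested. Most genes of the contractile and adhesive cytoskeleton had small differences, with a few large values among them. Of 58 actomyosin and focal adhesion genes, 39 lay above 0, with a median of 0.0663 and a mean of 0.173, since a few members stood far out: 9 reached 0.5 and none reached -0.5. After MYL9 and PARVB came PALLD, an actin-bundling scaffold, at 0.89, FLNA, an actin cross-linker, at 0.71, and CFL2 at 0.65. In the mir-200c knockout the same list had a median of 0.246. TAGLN, an actin-binding gene of smooth muscle, stood at 2.08 there but had a difference of -0.20 without mir-141.

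Mesenchymal and matrix genes had a median of 0.200, with 18 of 25 above 0, 8 at or above 0.5 and none at or below -0.5. COL12A1, a fibril-associated collagen, was 1.14 higher, LAMA3, a laminin chain of epithelial basement membranes, 0.96, and FSTL1, a secreted glycoprotein, 0.81. FN1, fibronectin, was well above wild type in the mir-200c knockout, at 1.23. It was already nearly as high in the mir-141 knockout, at 1.17, and had a difference of -0.05. The median of the list in the mir-200c knockout was 0.592.

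Markers of basal breast epithelium had the highest median of all lists, 0.483, with 13 of 16 above 0, 8 at or above 0.5 and 1, SFN, at -0.67. Besides CLDN1, the largest values were those of KRT17, a basal keratin, at 1.12, ANXA3, a calcium-dependent membrane-binding protein, at 1.10, and CAV1, the main protein of caveolae, at 0.94. KRT14 stood at 0.43, KRT16 at 0.56 and KRT6B at 0.60, keratins whose reads may in part be shared among similar family members. Genes of epithelial junctions were higher by less: 39 of 52 lay above 0, with a median of 0.105, and only CLDN1 and PKP2, a desmosomal plakophilin, reached 0.5, the latter at 0.65. PKP2 was at -0.75 to wild type in the mir-141 knockout and at -0.11 in the double knockout. OCLN, the tight junction protein occludin, had a difference of 0.50 and CGN, cingulin, of 0.45. EPCAM, the epithelial adhesion molecule, had a difference of -0.13. Basal and junction genes were thus higher side by side with the mesenchymal list.

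Of the inflammatory genes of the NF-kB pathway, 22 of 25 lay above 0, with 8 at or above 0.5 and a median of 0.322. CD40, a receptor of the tumour necrosis factor family, was low in the mir-141 knockout at -1.44 and near wild type in the double knockout at -0.10. SAA1, an acute-phase protein, went from -0.19 to 1.04 and ICAM1, an adhesion molecule for white blood cells, from 0.12 to 1.26. The transcription factor subunits themselves differed less, with NFKB2 at 0.32, REL at 0.30, NFKB1 at 0.03 and RELA at 0.02.

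Antigen presentation genes lay above 0 in 15 of 17 cases, with a median of 0.254 and 5 at or above 0.5. HLA-DMA, which loads peptides onto class II molecules, was 0.91 higher, though it shares 15.5% of its exonic bases with another entry on the same strand. ERAP1, which trims peptides, was 0.79 higher. HLA-B, a class I heavy chain whose sequence is highly similar to those of other class I genes, was 0.64 higher. Interferon-stimulated genes did not share this pattern. Of 23, 12 lay above 0 and 11 below, with a median of 0.0131, although the median in the mir-200c knockout was 0.653. GBP1 and GBP2, at 1.69 and 0.95, and the tetherin gene BST2, at 0.97, had high differences. BST2 was below wild type in the mir-141 and mir-200c knockouts, at -0.89 and -0.70, and near it in the double knockout, at 0.08. ISG15, a ubiquitin-like modifier, stood at -0.39 and the membrane protein IFITM2 at -0.61.

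Targets of YAP and TEAD, the transcription factors that respond to cell tension and density, lay above 0 in 20 of 22 cases with a median of 0.275. CYR61 was 0.75 higher, CTGF 0.71, NT5E 0.74 and WWTR1, which encodes the paralogue of YAP, 0.75. YAP1 itself was at 0.16 and TEAD4 was the lowest at -0.42. Immediate early and ERK feedback genes had 21 of 26 above 0 and a median of 0.224. ATF3, a stress-induced factor, went from 0.05 to 1.13 and JUN from 0.68 to 1.48, while KLF6 was 0.59 higher. EGR1, at -0.25, and SPRY1, a feedback inhibitor of receptor signalling, at -0.51, were exceptions.

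Secretory products of luminal cells diverged. Of 25, 9 reached 0.5 and 4 reached -0.5, and the range ran from CYP4B1 at 2.20 to MUC5B at -1.52. The median was 0.299, and 0.174 without chromosomes 13, 18 and 22. The oestrogen and androgen receptor programme leaned downward against the mir-141 knockout, with 13 of 19 below 0 and a median of -0.189. Relative to wild type, the median of the list was 0.0618 in the mir-141 and 0.127 in the double knockout, so it was not below wild type in either. After IGFBP2 came TFF3, a small secreted trefoil peptide, at -0.68, XBP1, a factor of the secretory pathway, at -0.47, and AGR2, a protein-folding enzyme, at -0.42. FOXA1 and GATA3, factors that define luminal cells, differed by -0.19 and -0.14.

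Proliferation genes were slightly lower as a group, with small values for single genes. Of 71 mitosis genes, 59 lay below 0, with a median of -0.158. Only SMC4, a condensin subunit, reached -0.5, at -0.51, and its exons overlap those of TRIM59 on the other strand over 23.9% of their length. KIF11, the motor that separates spindle poles, stood at -0.47 and TTK, a checkpoint kinase, at -0.45. CENPH, a kinetochore protein, was the exception at 0.55. Of 56 DNA replication genes, 49 lay below 0, with a median of -0.137. POLE2, a subunit of DNA polymerase epsilon, was 0.93 lower, CDC45, part of the replicative helicase, 0.64 and RPA3, part of the single-strand binding complex, 0.59. The medians in the mir-200c knockout were -0.253 and -0.234.

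The genes of the respiratory chain and ATP synthase resembled them, with 63 of 78 below 0, 4 at or below -0.5 and a median of -0.149. The lowest were NDUFA12 at -0.61, ATP5J at -0.60, NDUFB1 at -0.56 and UQCR10 at -0.56, small subunits of complex I, ATP synthase and complex III. The exons of ATP5J overlap those of GABPA on the other strand over 27.3% of their length. Cytosolic ribosomal proteins, by contrast, lay near the median of all genes, at -0.0277, with none of 74 beyond 0.5. The cholesterol synthesis list had a median of 0.0154, with INSIG2, a brake on sterol synthesis, at 0.91, and growth factor receptor signalling -0.0240.

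Within the growth factor receptor list the fibroblast growth factor receptors diverged. FGFR3 and FGFR1 stood at -1.03 and -0.81 and FGFR2 at 0.55, while ERBB2, the amplified receptor of this line, was at 0.03. Of 29 genes of the microRNA machinery, 19 lay below 0, with a median of -0.0625. MOV10, an RNA helicase that binds Argonaute proteins, was the highest at 0.40. DICER1, DROSHA, DGCR8 and AGO2 stood at -0.17, 0.04, -0.15 and 0.04. Of 9 genes around the microRNA locus on chromosome 12, 7 lay below 0, with a median of -0.102. PTPN6, the nearest measured gene upstream, differed by -0.10, ATN1 by -0.13 and LRRC23, the lowest, by -0.26.

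**Figure D4:**
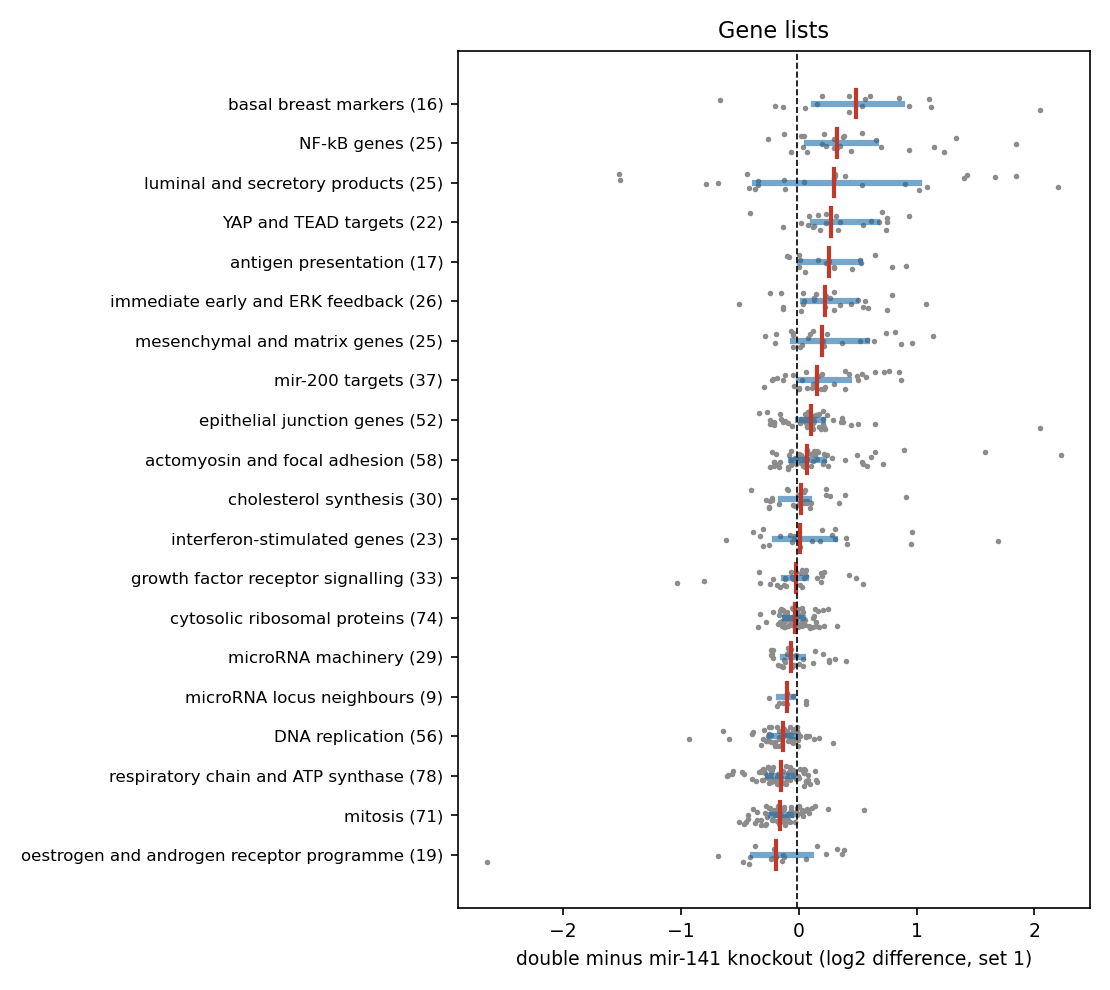
Log2 difference of double minus mir-141 knockout in set 1 for the members of 20 gene lists, with the number measured in brackets. Points are genes, red ticks medians, blue bars the middle 50% of members, and the dashed line the median of all genes. The basal list has the highest median (0.483) and the oestrogen and androgen receptor list the lowest (-0.189).

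The differences were not spread evenly over the genome. The median was -0.204 on chromosome 22, where 17.9% of 246 genes lay above 0, -0.129 on chromosome 13 (157 genes, 29.9%) and 0.135 on chromosome 18 (118 genes, 74.6%). Chromosome 4 had a median of 0.0794, and all others lay between -0.0566 and 0.0126. On chromosome 22 the mir-200c knockout was also low, at -0.338, and the mir-141 knockout at -0.0964. On chromosomes 13 and 18 the mir-141 knockout leaned the same way, at -0.127 and 0.188, whereas the mir-200c knockout was at -0.0208 and 0.0328. Among runs of 20 neighbouring genes, the lowest median was -0.341, from TRIOBP to CBX7 on chromosome 22, and the highest 0.313, from MOCOS to MEX3C on chromosome 18. There the mir-141 knockout already stood at 0.628 and the double knockout at 0.942.

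Without chromosomes 13, 18 and 22, left out after their medians had been seen, 44 genes reached 1 and 17 reached -1 of the remaining 8724. The distance of mir-200c-3p site genes from genes with neither site was 0.0527, against 0.0569 with them, and the correlation with the loss in the presence of mir-141 was 0.331. The interferon list crossed 0, with a median of -0.0126, while the mitosis, replication and respiratory chain medians were -0.150, -0.130 and -0.147.

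**Figure D5:**
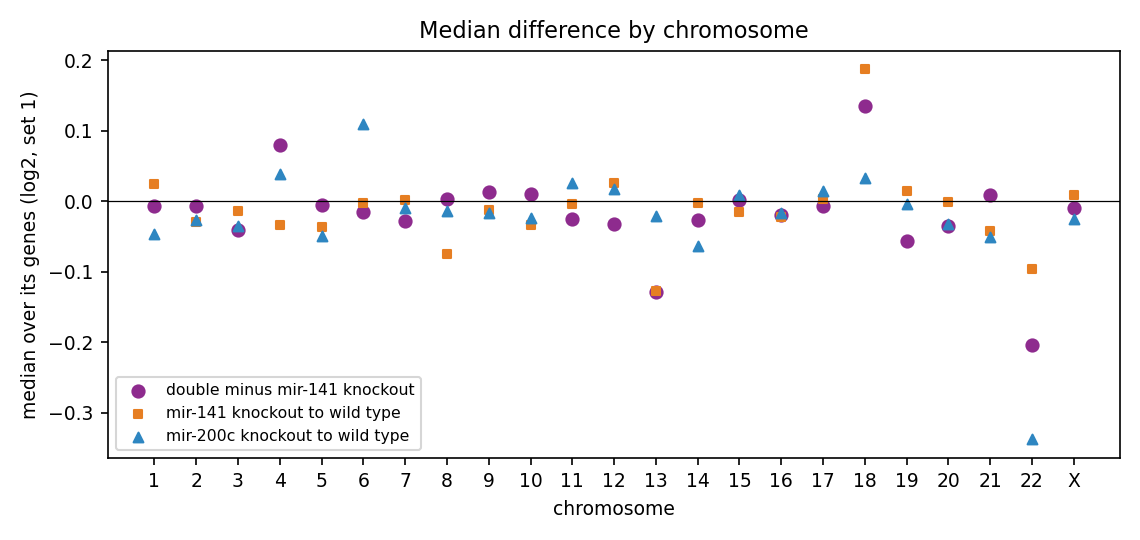
Median over the genes of each chromosome in set 1 of the log2 difference of double minus mir-141 knockout (circles), of the mir-141 knockout to wild type (squares) and of the mir-200c knockout to wild type (triangles). Chromosomes 22 (-0.204), 13 (-0.129) and 18 (0.135) stand furthest from 0 for the circles.

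In set 2, as listed, 159 genes reached 1 (1.72%) and 71 reached -1 (0.768%), with an SD across genes of 0.399. By gene name these differences bore no relation to those of set 1: the Pearson correlation was 0.0036 and the Spearman correlation 0.0143 over 9245 rows, and that of the absolute values was -0.0224 by Spearman. Among the 66 genes beyond 1 in set 1, the sign was shared by 28 in set 2, and 3 of these also passed 0.5 there. Over all genes, 50.8% shared the sign between the sets. MYL9 stood at 0.06 in set 2 and SNRPN at 0.84. Within set 2, the loss of mir-200c with and without mir-141 had a Pearson correlation of 0.293 between libraries that are not shared, and a Spearman correlation of 0.272. The loss of mir-141 with and without mir-200c had 0.235 and 0.241 there. The 442 genes with an 8-base mir-200c-3p site averaged 0.0495 in set 2, against -0.00037 for genes with no site, and CAGTATT ranked 206 by the weighted measure. Within length bins, genes with any mir-200c-3p site lay 0.0179 above the rest in set 2, less than the 0.0207 for let-7a-5p and the 0.0218 for miR-200c-5p. Neighbouring genes had a Spearman correlation of 0.0956 in set 1 and of 0.0014 in set 2.

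Tested over both sets as listed with limma, no gene was called. For double minus mir-141 knockout, 0 of 9245 genes passed an adjusted p of 0.05 (0.0%), with 248 at an unadjusted p under 0.05 and a smallest adjusted p of 0.998. For the difference between the loss without and with mir-141, 0 passed (0.0%), 157 had an unadjusted p under 0.05 and the smallest adjusted p was 1.00. If no gene differed, about 462 of 9245 genes would be expected at an unadjusted p under 0.05, so both counts lay below that number. These p-values measure the spread between the 2 sets, in which clone and set cannot be told apart. They hold only if a row is the same gene in both. The smallest p belonged to BST2, an interferon-induced protein that tethers viruses, with an estimate of 1.38 ± 0.25 (SE, limma adjusted p = 0.998), a difference of 0.97 in set 1 and 1.79 in set 2. PKP2 had 0.92 ± 0.21 (SE), from 0.65 in set 1 and 1.20 in set 2. C2orf76 had -0.72 ± 0.17 (SE), from -0.92 and -0.52. The other genes among the 10 smallest p follow with their estimates. They were DNAAF1 (1.15), EBAG9 (-0.70), APOE (1.34), PRSS22 (1.26), UPP1 (0.85), ENHO (-0.79) and CCDC51 (-0.67). None of these genes passed the adjustment.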

How the data were processed

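RNA sequencing covered 8 libraries of SK-BR-3 cells, 4 of which enter the comparison. Poly(A) RNA was captured on oligo(dT) beads, fragmented and joined to adaptors, per the labels' protocols. The submitters' processing notes name TopHat2 and GRCh37.p10, without saying how reads were counted, scaled or filtered. For 9245 rows, the authors deposited log2 ratios of each knockout, with the wild type of that set as the base. Columns of samples outside the series numbered 0.

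From these, log2 differences of double minus mir-141 knockout were computed per row, with no filter. The comparison and the gene lists were chosen with earlier results of these data known. The rules for named genes took the 12 highest and 12 lowest differences, the 8 highest and 8 lowest extreme in the same direction both with and without mir-141, the 5 on either side with opposite signs, the 8 highest with an 8-base mir-200c-3p site, the 4 largest of each of 22 lists, genes fixed by name and the 10 smallest p. Not every gene taken by these rules is named in the text. Other genes named were chosen after their values were seen. limma 3.58.1 in R 4.3.3 was fitted over both sets with wild type at 0, 4 groups and the set as a block. The set pairs the libraries because the labels name it as shared. Deviations from group means correlated at 0.494, 0.624 and 0.654 between clones of 1 set, but these ratios share a wild type, so the correlations are no separate support. The fit and the length-bin shift were tested on simulated data.

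Of the rows, 9226 were matched to GENCODE 29 (GRCh38), 9011 by accession and 215 by symbol, and 9207 had a 3′ UTR. All coordinates are on GRCh38. Sequences of microRNAs are RefSeq's (GRCh38.p14). Alternatives tried were centring of columns, other fold thresholds, other site definitions and 3′ UTRs, set 2, the mean, the fit without the block, robust moderation and leaving out each library.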

Additional observations from a re-analysis of the deposited data

Results flagged for a closer look

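In set 1, 10 genes lay on opposite sides of 0 for the loss of mir-200c without and with mir-141. Each was read from 1 library per group, so the difference was not tested within that set. The limma fit over both sets as listed called none of these genes for this difference (limma adjusted p = 0.9999 for each). Higher without mir-141 and lower with it were HIST2H3D (1.54 without, -1.12 with), NCCRP1 (1.43, -2.26), C11orf86 (1.42, -2.31), ORM1 (1.40, -2.50) and SLC1A3 (1.23, -1.16). Lower without mir-141 and higher with it were SNRPN (-3.23, 0.92), MGP (-1.22, 0.87), EYA2 (-0.95, 0.79), NBL1 (-0.90, 1.25) and GPR110 (-0.86, 2.20). They are the 5 genes on either side with the largest smaller value, so their size was fixed by the choice.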

How the results depend on the processing

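The counts of 47 higher and 19 lower genes became 267 and 126 at 1.5-fold, 3 and 3 at 4-fold, and 159 and 71 in set 2 as listed. Centring the columns moved every difference by 0.0189, changed the sign of 0 of 123 named genes and gave 423 genes at or above 0.5 and 181 at or below -0.5. With limma, calls for double minus mir-141 knockout were 0 in every fit run, including the fit with no replicate block (52 genes at an unadjusted p under 0.05) and all fits without 1 library, where the smallest adjusted p was 0.0506. For the difference between the 2 settings, calls ranged from 0 to 1 over fits without 1 library: SLC26A11 without mir-200c KO replicate 1 (adjusted p 0.0381) and WDR20 without WT replicate 2 (adjusted p 0.0192). With no replicate block, 0 were called (63 at an unadjusted p under 0.05). Both this count and the 52 above lay below the 462 expected if no gene differed. List medians in set 2 as listed were 0.0415 (mir-200 targets), 0.0155 (actomyosin), -0.0893 (mesenchymal), -0.0583 (basal), 0.0248 (junction), -0.108 (NF-kB), 0.0132 (interferon), -0.117 (antigen presentation), -0.0204 (luminal), -0.0982 (oestrogen and androgen), 0.0084 (mitosis), -0.0820 (replication), -0.0744 (respiratory chain), 0.0207 (ribosome), -0.0321 (cholesterol), -0.0588 (immediate early), -0.0124 (YAP), -0.0385 (growth factor receptors), -0.0418 (microRNA machinery) and -0.106 (locus neighbours). Means in place of medians were 0.173 (actomyosin), 0.141 (interferon), -0.0391 (growth factor receptors), -0.0226 (machinery) and -0.0959 (neighbours). After centring, the medians were 0.0320 (interferon), -0.0051 (growth factor receptors), -0.0436 (machinery) and -0.0832 (neighbours), and the interferon median was -0.0126 without chromosomes 13, 18 and 22. The distance of mir-200c-3p site genes, 0.0569, was 0.111 with 8-base sites only, 0.0320 within length bins, and 0.0013 in set 2, where the correlation of 0.340 was 0.293. The cause of these shifts was not tested. A further 86 such values stayed within 1.5 times for counts, or within the spread between the sets for other values. That spread was taken from the distance between set 1 and set 2 as listed. It is wide wherever set 2 lies far off, and the set 2 value falls outside it by construction. Staying within it therefore does not show that a value is stable. Depth is unknown, so no limit from counting error can be given. A miR-124 seed, planned as a further background, was not run.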

Other observations

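Other genes beyond a log2 difference of 1 in set 1 were named after their values were seen. ADM, a vasodilator peptide, had ratios to wild type of -0.26 in the mir-141 and 1.09 in the double knockout. MAP3K8, a kinase upstream of ERK and NF-kB, had -0.05 and 1.13. CDKN2B, an inhibitor of the cyclin D kinases, had -0.15 and 0.92, and DHRS3, a retinal reductase, had -0.05 and 1.02. All 4 were above wild type in the mir-200c knockout, with 0.86 for ADM, 0.66 for MAP3K8, 1.41 for CDKN2B and 0.44 for DHRS3. P2RX5, an ATP-gated channel, was lower, at -1.75 and -2.86.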
